A study of Mus musculus with 9 samples.

Results

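Foxp1, Foxp2 and Foxp4 encode FOXP proteins, forkhead transcription factors, and their transcript levels were examined in mouse dorsal telencephalon, which later forms the cerebral cortex. The 3 genes were chosen by identifier (ENSMUSG00000029563_at for Foxp2, ENSMUSG00000030067_at for Foxp1 and ENSMUSG00000023991_at for Foxp4). All 3 were present among the 12188 genes of the deposited table. Foxp2 was chosen because it showed one of the largest rises in Dicer knockout embryos and is a reported target of the microRNA miR-9, so its knockout and control levels are given as a description with no test. Foxp1 and Foxp4 were taken with it as relatives of the same family.

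The samples were 9 mouse embryos of strain C57Bl6/J at E13.5 (days of embryonic development), each measured on 1 Affymetrix array from total RNA. There were 5 conditional knockouts of Dicer (knockouts 5, 7, 9, 10 and 11), all labelled male and described as depleted of microRNAs. The 4 controls comprised 2 embryos labelled female (controls 1 and 2) and 2 labelled male (controls 3 and 4). Their genotype is labelled only as control, while their titles begin with HTZ, so they are not taken to be wild type. The driver of the conditional deletion is not given in the sources used here. Some embryos were littermates, but which ones is not stated, and the tests treat the 9 embryos as independent.

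FOXP proteins pair with themselves and with each other and mostly repress transcription. In the mouse cortex Foxp2 is best known from neurons of the deepest layers and Foxp1 from projection neurons of the layers above them, and Foxp4 is expressed broadly in the developing forebrain. The fourth member, Foxp3, is known from regulatory T cells and was not analysed here. Dicer is the enzyme that releases mature microRNAs from their hairpin precursors. MicroRNAs pair through a short seed with sites in messenger RNAs and lower their level or translation. In the mouse cortex miR-9 and miR-132 have been reported to act on Foxp2, and in the chick spinal cord miR-9 has been reported to act on Foxp1.

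The reported regulators miR-9-5p and miR-132-3p are shown here because the labels describe the knockouts as depleted of microRNAs, together with the opposite arm of miR-9 and with miR-212-3p, which shares the miR-132-3p seed. They were not measured on these arrays. Sequences are from RefSeq on GRCm38.p6, 5′ to 3′, and capitals mark the seed, bases 2 to 8.
mmu-miR-9-5p: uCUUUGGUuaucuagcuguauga
mmu-miR-9-3p: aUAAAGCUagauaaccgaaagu
mmu-miR-132-3p: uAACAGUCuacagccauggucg
mmu-miR-212-3p: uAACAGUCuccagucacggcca
The mouse genome holds 3 copies of the miR-9 gene, all on the plus strand, and they give 1 and the same mature miR-9-5p. This arm lies at chr3:88215613-88215635 in Mir9-1, at chr13:83738821-83738843 in Mir9-2 and at chr7:79505279-79505301 in Mir9-3. A messenger RNA site that pairs with its whole seed reads ACCAAAG. Among the 1679 mature microRNA names in the RefSeq table, 0 others share the miR-9-5p seed, so it stands alone as a seed family there. The opposite arm, miR-9-3p, has a different seed. The miR-132-3p sequence, at chr11:75173723-75173744, shares its seed with 1 other microRNA. That is miR-212-3p from the neighbouring gene Mir212, at chr11:75173443-75173464, and a site for either reads GACUGUU. Messenger RNA sequences of the FOXP genes were not used here, so no site was counted in them.

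The deposited values were on a log2 scale and ran from 2.72 to 14.1, with array medians between 7.61 and 7.75. No pair of arrays held identical values. Control 4 stood apart from the other controls over all genes. Its root mean square difference from each of controls 1 to 3 was 0.399 to 0.421 log2 units, while those 3 differed from each other by 0.153 to 0.21 and the knockouts among themselves by 0.196 to 0.346. The table does not pair its identifiers with symbols, so Dicer1 itself, cell type markers and other genes of the FOXP and miR-9 pathways could not be examined by name. The labelled tissue was not checked against markers for the same reason.

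Foxp2 was higher in every Dicer knockout than in every control. Its level was 9.66 log2 units in knockout 5, 9.08 in knockout 7, 9.34 in knockout 9, 9.23 in knockout 10 and 9.6 in knockout 11. In the controls it was 7.81, 7.93, 7.49 and 8.48 for controls 1, 2, 3 and 4 in that order. The groups did not overlap, and the lowest knockout, number 7, lay 0.60 log2 units above the highest control, number 4. Such a separation in the same direction was found for 9.99% of all genes, and Foxp2 was selected for its rise, so nothing is read from it.

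The mean Foxp2 level was 9.38 ± 0.25 (SD, n = 5) log2 units in the knockouts and 7.93 ± 0.41 (SD, n = 4) in the controls. The difference was 1.46 log2 units (SE 0.19), or 2.74-fold. Counting Foxp2 itself, 13 of the 12188 genes (0.107%) had a rise in the knockouts at least this large, and 9 of them had groups that did not overlap. Falls were not counted. By the width of the empty space between the groups, 33 genes left a gap of at least 0.60 log2 units with the knockouts higher. Without control 4 the gap at Foxp2 was 1.15 log2 units, and 6 genes left one at least as wide in the same direction. This gap and count were added after the values were seen. Control 4 was the highest control at Foxp2, so leaving it out had to widen the gap, and nothing is read from it. The median difference over all genes was -0.016 log2 units. In tissue pieces such as these, a higher Foxp2 value can come from more cells that express Foxp2 or from more Foxp2 RNA per cell, and the arrays cannot tell these apart.

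**Figure D1:**
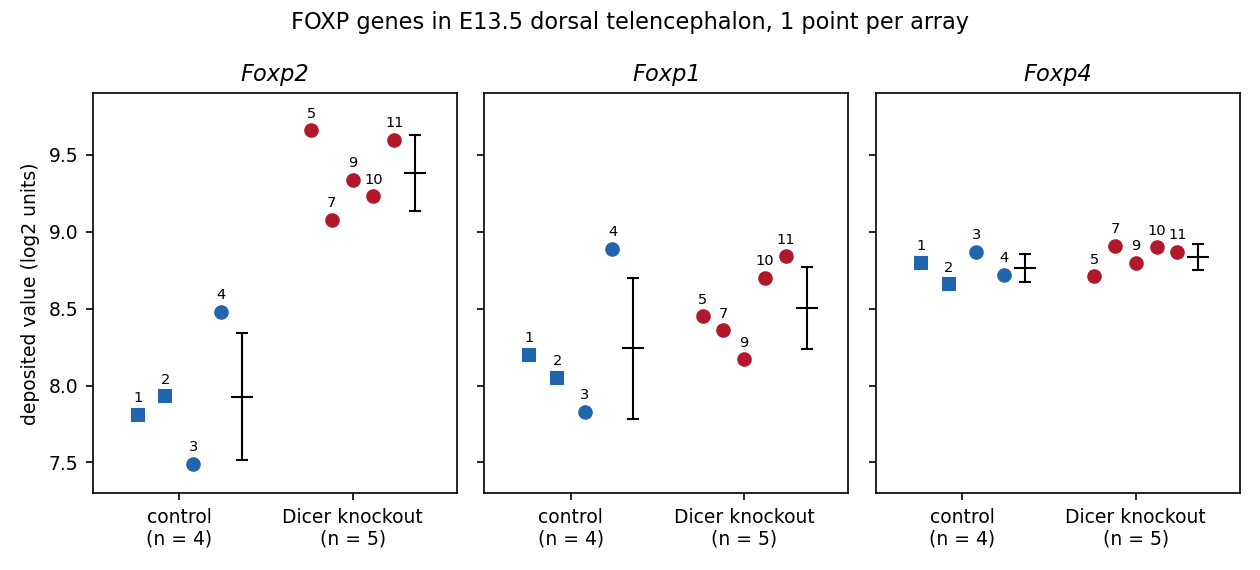
Deposited log2 values of Foxp2, Foxp1 and Foxp4 in the 4 control arrays (blue) and the 5 Dicer knockout arrays (red), with the replicate number above each point, squares for embryos labelled female and circles for males. The black marks give the mean and SD of each group. All Foxp2 knockout values lie above all control values, control 4 has the highest Foxp1 value of all arrays, and the Foxp4 values of the groups overlap. Heights of different genes are not comparable on an array.

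**Figure D2:**
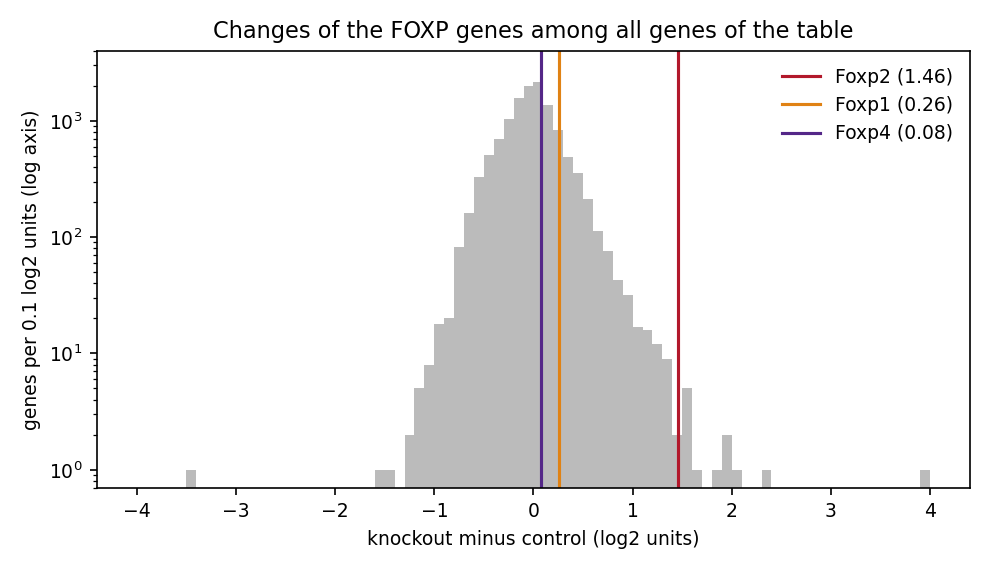
Number of genes (log axis) against the difference between knockout and control means in log2 units, for all 12188 genes in steps of 0.1. The vertical lines place Foxp2 (1.46) in the upper tail and Foxp1 (0.26) and Foxp4 (0.08) in the main body of genes.

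Within the controls the Foxp2 values were spread widely. Ordered from low to high, control 3 came first, then control 1, control 2 and control 4, and the step from control 2 to control 4 was 0.55 log2 units. That step within the control group was nearly as wide as the 0.60 between control 4 and knockout 7. Controls 1 to 3 alone spanned 0.44 log2 units around a mean of 7.74 ± 0.23 (SD, n = 3). The knockouts spanned 0.58 log2 units, and knockout 7 lay 0.38 below the mean of the other 4 knockouts. The pooled within-group SD of Foxp2, 0.33 log2 units, was larger than that of 92.0% of all genes. With control 4 left out the Foxp2 difference was 1.64 log2 units (SE 0.15), and with both control 4 and knockout 7 left out, a choice made after the values were seen, it was 1.72 (SE 0.14).

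Foxp1, a close relative that can pair with Foxp2, was not called between the groups when all 9 arrays were used. Its level was 8.45 log2 units in knockout 5, 8.36 in knockout 7, 8.17 in knockout 9, 8.70 in knockout 10 and 8.84 in knockout 11. Controls 1, 2 and 3 had 8.20, 8.05 and 7.83, whereas control 4 had 8.89, the highest value of all 9 arrays. Without control 4, the groups overlapped at 1 pair of arrays, with control 1 above knockout 9 by 0.04 log2 units.

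The Foxp1 means were 8.50 ± 0.27 (SD, n = 5) log2 units in the knockouts and 8.24 ± 0.46 (SD, n = 4) in the controls. Their difference of 0.26 log2 units (SE 0.21, 95% interval -0.20 to 0.72) did not pass, with a limma adjusted p of 0.411 over all genes. An exact two-sided permutation test over all splits of the 9 arrays into 5 and 4 gave p = 0.317 for Foxp1. The interval runs from a 0.869-fold to a 1.65-fold level. When control 4 was left out, the Foxp1 difference was 0.47 log2 units (SE 0.15, 95% interval 0.14 to 0.81), and it passed with a limma adjusted p of 0.0415, as did 26.8% of all genes without that array. Without control 4 and knockout 7 together it was 0.51 (limma adjusted p = 0.0444), where 27.3% of all genes passed. Over all 17 alternatives, which reuse the same arrays and are not separate checks, the limma adjusted p of Foxp1 ran from 0.0415 to 0.779. The difference was above 0 in 17 of 17. Whether Foxp1 passed therefore depended on leaving out control 4. Leaving out control 3 instead gave a difference of 0.12 log2 units (limma adjusted p = 0.726).

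Foxp4, the family member with the steadiest level, differed little between any arrays. In knockouts 5, 7, 9, 10 and 11 its level was 8.71, 8.91, 8.80, 8.90 and 8.87 log2 units. In controls 1 to 4 it was 8.80, 8.66, 8.87 and 8.72. Values of the groups overlapped, with a control lowest and knockouts 10 and 7 highest, in a range of 0.25 log2 units over all 9 arrays. The range was 1.06 for Foxp1 and 2.17 for Foxp2. The Foxp4 means were 8.84 ± 0.08 (SD, n = 5) in the knockouts and 8.76 ± 0.09 (SD, n = 4) in the controls. The difference of 0.08 log2 units (SE 0.07, 95% interval -0.08 to 0.23) had a limma adjusted p of 0.48. The exact two-sided permutation p for Foxp4 was 0.254. The interval for Foxp4 runs from 0.946-fold to 1.17-fold. Its pooled within-group SD, 0.09 log2 units, was larger than that of just 15.3% of all genes, and its knockout against control limma adjusted p stayed between 0.276 and 0.794 over the 17 alternatives.

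Of the 2 family members that were tested, Foxp1 and Foxp4, limma on all 9 arrays called 0 at an adjusted p under 0.05. At an unadjusted p under 0.05 the count was also 0, and the permutation tests called neither. Of all genes in the same comparison 24.6% were called at the adjusted p. The shares of all genes at the unadjusted p and in permutation tests were not computed, so nothing is read from those counts.

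Control 4 lay above the other controls at Foxp1 and Foxp2, and among them at Foxp4. Its Foxp2 level was 0.74 log2 units above the mean of controls 1 to 3, and its Foxp1 level was 0.86 above theirs. At Foxp4 it lay -0.06 log2 units from them. Over all genes, 6.97% had a shift of control 4 at least as large as that of Foxp2, in either direction, and 5.21% one at least as large as that of Foxp1. For Foxp4 the share was 79.4%. What sets control 4 apart at these genes was not tested.

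Because values of different genes on an array have no common scale, the members were also compared through log2 ratios within each array, expressed relative to the control mean. For Foxp2 to Foxp1 the controls lay close together, at -0.08, 0.20, -0.02 and -0.09 for controls 1 to 4. The knockouts were at 1.53, 1.04, 1.49, 0.85 and 1.08 for numbers 5, 7, 9, 10 and 11. In this ratio control 4 lay beside control 1, although both genes were higher in it than in any other control. The control range of the Foxp2 to Foxp1 ratio was 0.29 log2 units, narrower than the 0.99 of Foxp2 and the 1.06 of Foxp1. Without control 4 these ranges were 0.28, 0.44 and 0.37. In the knockouts the ratio was no narrower, with a range of 0.68 log2 units beside 0.58 for Foxp2 and 0.67 for Foxp1. The lowest knockout ratio, that of knockout 10, was 0.66 above the highest control ratio, that of control 2, with or without control 4. Ratios without control 4, here and below, were examined only after the values were seen. On average the Foxp2 to Foxp1 ratio was 1.20 log2 units higher in the knockouts (SD 0.30 in the knockouts, n = 5, and 0.13 in the controls, n = 4). It contains the Foxp2 values that led to its choice and was not tested.

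The ratios to Foxp4 depended more on control 4. For Foxp2 to Foxp4 the mean was 1.38 log2 units higher in the knockouts, and control 4, at 0.60, was 0.40 below the lowest of them. Without control 4 that mean difference was 1.58 and the gap 0.90 log2 units, wider than the gap in the Foxp2 to Foxp1 ratio. The control range of Foxp2 to Foxp4 was 1.14 log2 units with control 4 and 0.65 without it. For Foxp1 to Foxp4 the groups overlapped, with control 4 at 0.69 above all knockouts, which ran from -0.12 to 0.49. Without control 4 the lowest knockout minus the highest control was -0.04 log2 units. Among the controls, control 3 was lowest and control 4 highest for both Foxp1 and Foxp2, while controls 1 and 2 changed order between these genes. The knockouts did not share their extremes. For Foxp1 knockout 9 was lowest and knockout 11 highest, and for Foxp2 knockout 7 was lowest and knockout 5 highest.

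**Figure D3:**
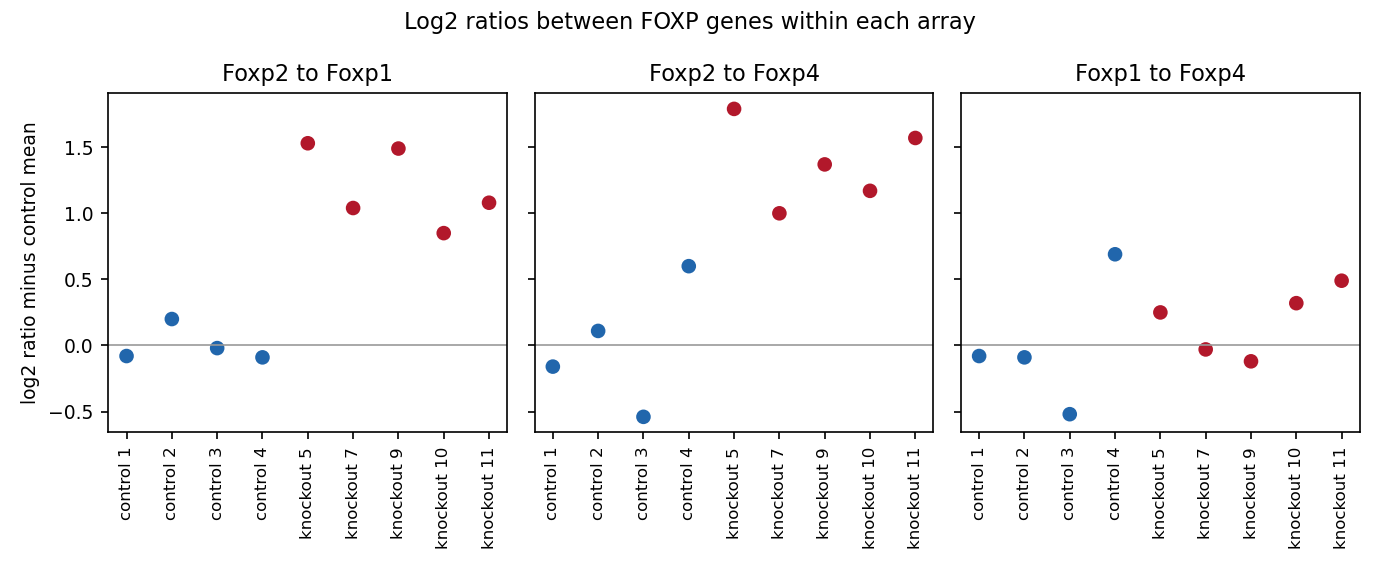
Log2 ratio of each pair of FOXP genes within each array, minus the mean of the 4 controls, for controls (blue) and knockouts (red). In the Foxp2 to Foxp1 ratio the controls lie between -0.09 and 0.20 and the knockouts between 0.85 and 1.53, while control 4 stands high in both ratios to Foxp4.

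All knockouts were labelled male, so the FOXP genes were also compared between control embryos labelled male and female, a contrast that played no part in choosing Foxp2. For Foxp2 the mean was 7.99 log2 units in the 2 control males and 7.87 in the 2 control females. The difference of 0.12 log2 units (SE 0.29, 95% interval -0.54 to 0.78) had a limma adjusted p of 0.933 in a fit of 3 groups. Foxp1 had 8.36 and 8.13, a difference of 0.23 (SE 0.32, 95% interval -0.48 to 0.95, limma adjusted p = 0.874). Foxp4 had 8.80 and 8.73, a difference of 0.06 (SE 0.11, 95% interval -0.18 to 0.30, limma adjusted p = 0.897). None of the 3 genes passed in this limma fit, and 0 had an unadjusted p under 0.05. Of all genes 0.0% were called there, and 7.13% (869 genes) had an unadjusted p under 0.05. The smallest limma adjusted p of any gene in this contrast was 0.676. Sex-linked genes could not be named, so the labelled sexes were not checked against them. The contrast is therefore one between labels.

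The 2 control males differed from each other more than the sexes did at all 3 genes. At Foxp1 and Foxp2 control 3 was the lowest and control 4 the highest control. At Foxp4 control 3 had 8.87 log2 units and control 4 had 8.72. Without control 4 the sex difference turned to -0.38 log2 units for Foxp2 and -0.30 for Foxp1. Without control 3 it was 0.62 and 0.76. Either choice leaves 1 control male, so only the sizes are given, and their sign depended on which male was kept. Against the control males alone, in the same 3-group fit, Foxp2 was 1.40 log2 units higher in the knockouts (SE 0.25). Foxp1 differed by 0.14 (SE 0.26, limma adjusted p = 0.754) and Foxp4 by 0.04 (SE 0.09, limma adjusted p = 0.773), where 10.5% of all genes were called.

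**Figure D4:**
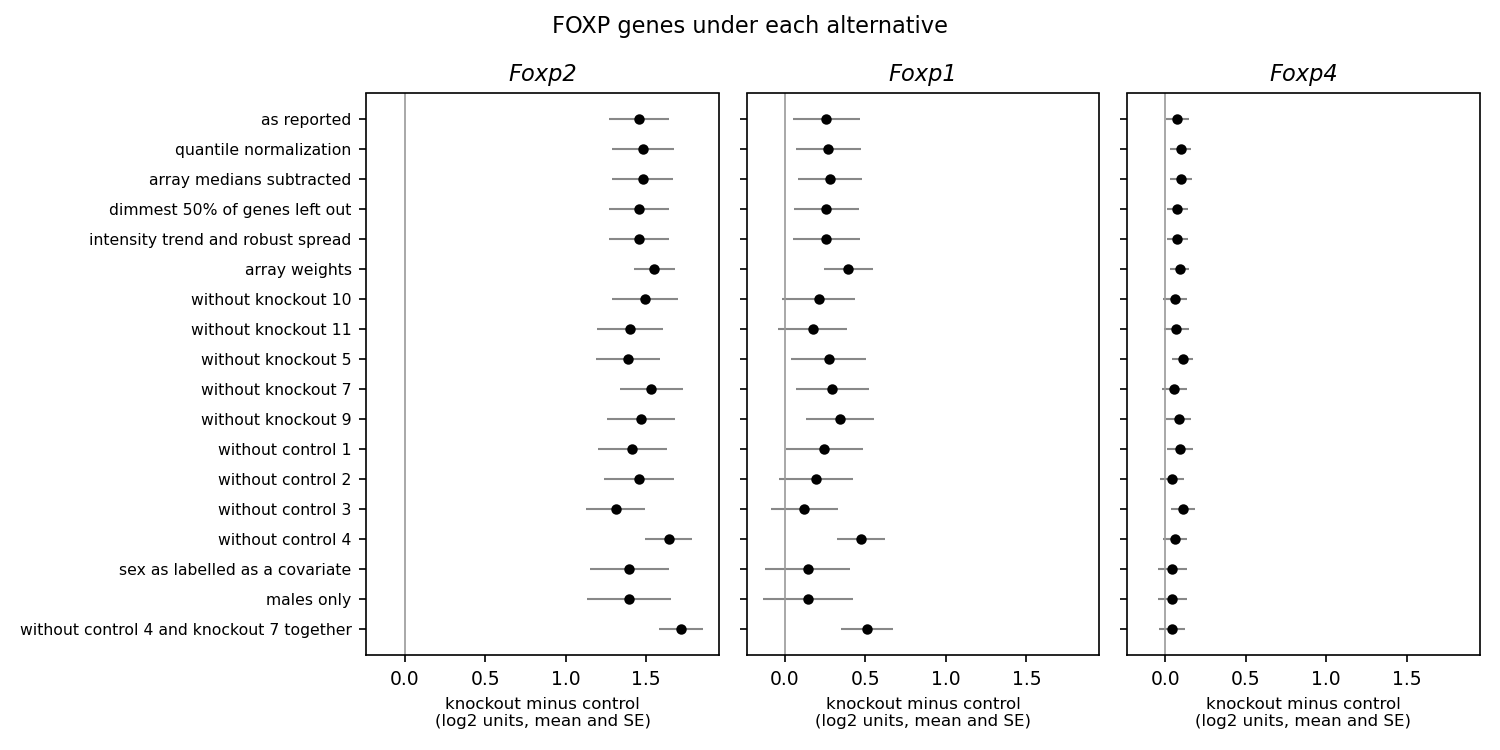
Knockout minus control difference in log2 units, with its SE, for Foxp2, Foxp1 and Foxp4 as reported and under 17 alternatives. Foxp2 stays between 1.31 and 1.72, Foxp1 between 0.12 and 0.51 with its highest values where control 4 is left out, and Foxp4 between 0.04 and 0.11.

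The genes most like each FOXP gene were sought by the root mean square difference between values centred on each gene's mean over the 9 arrays. For Foxp2, 857 genes varied at least 0.5 times as much as it did. The closest was ENSMUSG00000013415, at 0.219 log2 units from the Foxp2 profile, with means of 10.48 in the knockouts and 9.18 in the controls. ENSMUSG00000029714 followed at 0.235, with 9.89 and 8.64. The 5 closest genes had differences between knockout and control of 1.04 to 1.65 log2 units. This distance is set mainly by the knockout difference for which Foxp2 was chosen, so the list is a description. Foxp1 and Foxp4 varied too little to be in that search, and their distances from Foxp2 were 0.632 and 0.769 log2 units. The nearest genes to Foxp1 were 0.128 to 0.144 log2 units from it, among 5999 searched, and Foxp4 was 0.348 from Foxp1.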

How the data were processed

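Total RNA from 9 embryos was labelled with biotin and hybridised to 1-colour Affymetrix arrays, per the labels' protocols. The deposited table holds log2 values computed by the authors, whose processing notes name the affy package, per the labels. The handling of background, normalization, probe grouping and filters was not given in the sources used here. This log2 scale was read from the values. Columns without a sample numbered 0.

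Symbols of the FOXP genes came with their selection. The RefSeq table lists an Ensembl identifier for 0 of 49997 genes, so no other gene was named, and 9 gene lists and 12 marker lists were not tested. The genes and lists were chosen with earlier results of these data known. Of the 5 genes most like Foxp2, only the closest 2 were printed, as symbols are lacking.

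limma 3.58.1 in R 4.3.3 (lmFit, eBayes) was fitted to all 12188 genes without covariates, with two-sided p-values adjusted over all of them (Benjamini-Hochberg, threshold 0.05). The sex contrast came from a 3-group fit. On simulated data for knockout against control in 12188 genes, the fit recovered 56 of 100 genes changed by 0.5 log2 units and 91 of 100 changed by 1, with 14 false calls. The simulated noise was normal and independent between genes, so it held no shift shared over an array like that of control 4. The changed genes were drawn at random, whereas the pooled within-group SD of Foxp1 was larger than that of 94.0% of all genes. These shares therefore do not give the power for Foxp1. Alternatives changed the scaling, the genes, the spread model, the weights, the covariate or the arrays used. Those of the genes and the spread model cannot change the size of a difference, only its SE. Sex as a covariate and males only give the same difference. Precision is limited by the number of embryos, since arrays have no depth. Figures were drawn with matplotlib 3.10.9.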

Additional observations from a re-analysis of the deposited data

Results flagged for a closer look

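Dixon's test singled out no FOXP value or ratio, but with so few arrays only a very wide gap can pass it. The test takes each measure alone, so it does not bear on the distance of control 4 over all genes. In 12 comparisons of the most extreme array with its nearest neighbour (3 genes and 3 ratios, each in both groups) 0 exceeded the 95% limit of Dixon's test. At Foxp1 the gap of control 4 was 0.649 of the control range, where the limit for 4 arrays is 0.829, and at Foxp2 it was 0.558. The widest gap relative to its range was that of control 2 in the Foxp2 to Foxp1 ratio, at 0.767.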

How the results depend on the processing

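The Foxp2 difference between knockouts and controls moved by less than its spread between embryos under all 17 alternatives, from 1.31 to 1.64 with each array left out in turn and from 1.40 to 1.72 otherwise. Foxp4 kept its sign and did not pass under any of the 17. These alternatives reuse the same arrays and are not separate checks. Foxp1 did not pass in 15 of 17. It ran from 0.12 to 0.47 with each array left out, and passed without control 4 (0.47) and without control 4 and knockout 7 together (0.51). With array weights, where control 4 had the lowest weight of 0.243, Foxp1 was 0.39 with a limma adjusted p of 0.0648. The number of genes called was 2997 (1341 higher, 1656 lower), 4562 with array weights, 1285 with sex as a covariate, 324 with males only, and 1976 to 3263 with each array left out, lowest without control 1. Quantile normalization gave 1561 higher and 1545 lower genes, and centring on array medians 1498 and 1500. The cause of these shifts was not tested. With each array left out, the difference between control males and females ran from -0.38 to 0.62 for Foxp2 and from -0.30 to 0.76 for Foxp1. For Foxp4 it ran from -0.012 to 0.14. None of these genes passed where only a knockout was left out. Where leaving out a control leaves 1 array of a sex, the lone array is assumed to vary like the other groups. Counts of gene list members were not run, because identifiers could not be named. No paired analysis was possible because which embryos were littermates is not stated.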
